A study of Homo sapiens with 5 samples.

Results

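The metallothionein and zinc response genes described here were MT1A, MT1E, MT1F, MT1G, MT1M, MT1X, MT2A, MTF1 and SLC30A1, 9 of the 20136 protein-coding genes searched. They were taken as a fixed list of genes, and every Nrf2 or HIF1α peak that lay in one of these genes or no more than 50 kb away was assigned to them, on hg19 with GENCODE release 44 positions. The peaks came from ChIP-seq of BEAS-2B, an immortalized bronchial epithelial line of human origin, whose cells were kept in serum-free medium overnight and then left untreated (control) or treated with 1 μM iAs, inorganic trivalent arsenic, for 6 h. Chromatin was immunoprecipitated with an antibody against Nrf2 or against HIF1α, which gave 4 libraries, 1 per antibody and condition. By the labels the Nrf2 antibody came from Santa Cruz and the HIF1α antibody from Abcam, whereas the methods name another supplier for both. An input DNA sample was not analysed here. Over the genome there were 3204 control and 7743 iAs peaks of Nrf2, and 6008 control and 12826 iAs peaks of HIF1α. The lists contain where a peak starts and ends and neither a height nor a score, so a peak could be described only by presence, position and width, and the number of reads behind it is unknown. With 1 library per antibody and condition, no effect of iAs could be tested. The iAs lists were the longer ones for both factors, and the part of list length in the counts below was not tested. The intervals do not measure expression, so the cell line could not be checked against marker transcripts.

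Metallothioneins are small cysteine-rich proteins that bind zinc, copper and cadmium and also bind trivalent arsenic through their thiols. The human genes lie side by side in a cluster on chromosome 16. MTF1 is the zinc-sensing transcription factor that activates them through metal response elements, and SLC30A1 (ZnT1) exports zinc across the plasma membrane and is itself a classical MTF1 target. Nrf2 binds antioxidant response elements, often with a small Maf partner, and HIF1α binds hypoxia response elements with ARNT. In the text below a motif match means the stated letters on either strand, namely TGACNNNGC for the antioxidant response element core, TGACTCA or TGAGTCA for an AP-1 site, ACGTG or GCGTG for the hypoxia response element core, and TGCACNC or TGCGCNC for the metal response element core. An antioxidant response element core can contain an AP-1 site, and the same bases are then counted for both motifs. Distances run from the start site of the canonical transcript in the direction of transcription, with negative values upstream.

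In the chromosome 16 cluster, iAs-treated cells had peaks of both factors at a single gene, MT2A, a metallothionein gene that is expressed in most human tissues. MT2A lies at chr16:56642496-56643409 on the plus strand. The Nrf2 list with iAs held 3 peaks there, and the HIF1α list with iAs held 1. The control lists held none. The Nrf2 peak over the promoter, chr16:56642035-56642565, was 531 bp wide and ran from -461 to 69 bp. The HIF1α peak, chr16:56642253-56642440, was 188 bp wide, ran from -243 to -56 bp and lay wholly inside the Nrf2 peak. Since these 188 bases are the place that both iAs libraries share, they are printed here from hg19, plus strand, with the metal response element cores and the antioxidant response element core in capitals.
MT2A shared promoter interval: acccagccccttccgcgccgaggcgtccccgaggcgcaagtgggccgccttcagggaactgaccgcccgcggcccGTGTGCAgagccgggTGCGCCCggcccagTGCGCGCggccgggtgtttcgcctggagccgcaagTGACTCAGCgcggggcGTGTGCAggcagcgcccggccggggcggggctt
The capitals mark 4 metal response element cores and, between -104 and -96 bp, TGACTCAGC, an antioxidant response element core that contains an AP-1 site. The stretch also held 1 hypoxia response element core, at -90 to -86 bp, which overlaps the last of the printed metal response element cores. Over its whole width the Nrf2 promoter peak held 9 metal response element cores, 4 hypoxia response element cores and the same antioxidant response element core, and 66.7% of its bases were G or C.

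The other Nrf2 peaks at MT2A lay further upstream and had no HIF1α peak beside them. One, chr16:56639945-56640351, was 407 bp wide with its centre at -2.35 kb, and the other, chr16:56640643-56640850, was 208 bp wide with its centre at -1.75 kb. They were 291 bp apart, and 1184 bp separated the second from the promoter peak. The middle of the peak at -2.35 kb, chr16:56640048-56640248, is shown because its antioxidant response element core sits on the peak centre (0 bp away), with an AP-1 site at -72 bp from the centre, both in capitals.
MT2A upstream Nrf2 peak: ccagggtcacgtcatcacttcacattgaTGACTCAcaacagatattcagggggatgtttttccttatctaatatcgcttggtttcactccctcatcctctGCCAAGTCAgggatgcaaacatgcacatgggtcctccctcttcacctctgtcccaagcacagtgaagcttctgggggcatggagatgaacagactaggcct
The antioxidant response element core reads GCCAAGTCA here, the form on the opposite strand. A second AP-1 site lay 121 bp after the centre, outside the printed stretch. Both upstream peaks held 1 hypoxia response element core, not capitalized above, and the peak at -1.75 kb held none of the other motifs. Within the Nrf2 list with iAs, the widths of the 3 peaks stood at percentiles 61.8, 14.7 and 74.6, in order from the far end to the promoter. The HIF1α peak was at the lower end of its list, at percentile 3.86, and its 188 bp equalled the smallest width that the HIF1α list with iAs contains, where the median was 340 bp.

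The cluster from MT2A to MT1X spans 75.6 kb, and these 4 peaks were the whole content of the cluster with 50 kb on each side, chr16:56592496-56768108, in all 4 lists. On the MT1X side the next peak in any list lay 128 to 131 kb beyond the cluster, in all 4 libraries. On the MT2A side the next peak was 2581 kb away for Nrf2 in control cells, 1108 kb for Nrf2 with iAs, 362 kb for HIF1α in control cells and 418 kb for HIF1α with iAs. The map of the cluster shows the peaks at one end of the gene array and an empty array beyond.

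**Figure D1:**
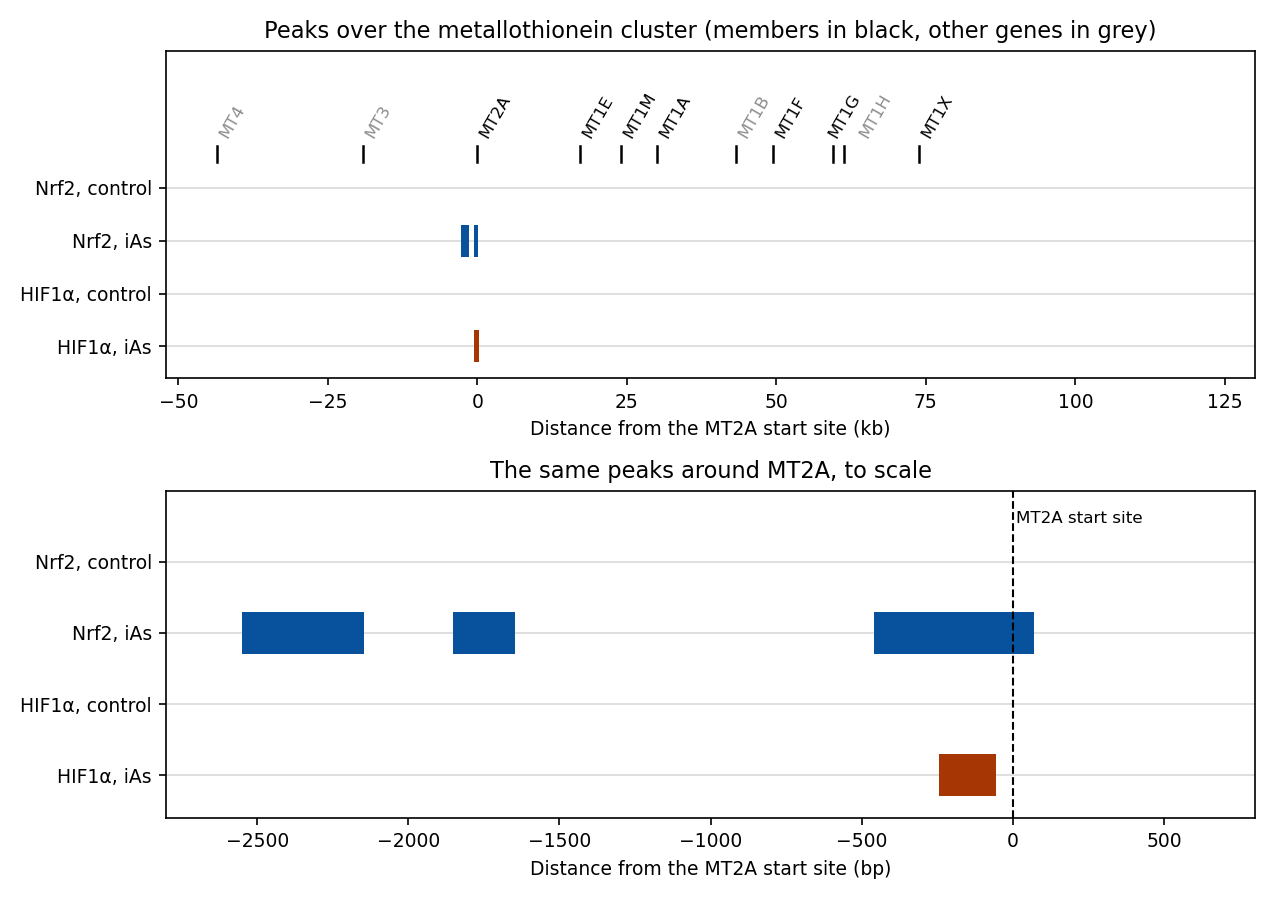
Upper panel, start sites of the cluster metallothionein genes (ticks) and peaks of the 4 libraries (bars) by distance from the MT2A start site in kb, with bars drawn at least 0.7 kb wide. Lower panel, the same peaks to scale in bp around the MT2A start site (dashed line). All 4 peaks, 3 of Nrf2 and 1 of HIF1α, are in the iAs libraries no further than -2551 bp from the MT2A start site, and the control rows are empty.

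The MT1 genes, which encode close relatives of the MT2A protein, had no peak of their own. MT1E, MT1M and MT1A came under the 50 kb rule through all 4 MT2A peaks, and MT1F through the promoter pair alone. The nearest edge of an Nrf2 peak with iAs was at -17.1 kb from the start site of MT1E, -24.0 kb from MT1M, -30.0 kb from MT1A and -49.3 kb from MT1F. MT1F was thus just inside the limit. MT1G and MT1X were outside it, with the nearest Nrf2 edge at 59.4 kb for MT1G, which is read from the minus strand, and at -73.8 kb for MT1X, and had no peak of either factor. For HIF1α with iAs the nearest edges were at -17.3, -24.1, -30.1 and -49.4 kb for the same 4 genes, in that order. In control cells the nearest Nrf2 peak was 204 kb from the start site of MT2A and the nearest HIF1α peak 206 kb. At a distance of 10 kb, MT2A was the single cluster member with a peak, in the Nrf2 and in the HIF1α list with iAs.

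Since near-identical paralogs can lose reads that match several places, the share of positions whose 31 bases occur once in hg19 was computed. It was 100% over the window from 250 bp before to 50 bp after the start site for 6 of the 7 cluster members, and 93.3% for MT1M. Over 1 kb on each side of the start site it ranged from 81.2% for MT1M and 81.7% for MT1E to 98.5% for MT1X, with 90.5% for MT2A. The read length is not given in the sources used here, so the part of repeated sequence in the empty MT1 intervals was not tested.

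The 9 bases TGACTCAGC of the MT2A promoter were also counted over the whole genome's promoters. They occurred in 81 of all 20136 promoter windows of 300 bp (0.402%). They occurred in 20 of the 700 windows that an Nrf2 peak overlapped with iAs (2.86%) and in 8 of 350 in control cells (2.29%). For HIF1α the figures were 19 of 6531 with iAs (0.291%) and 5 of 2836 in control cells (0.176%). MT2A, from which the 9 bases were taken, is itself counted in the 81, the 20 and the 19. These shares are descriptions of the lists and of the genome, and a match in the letters does not show where a factor was bound.

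Metal response element cores were present in the cluster promoters with and without a peak. In the 300 bp window MT2A had 8, MT1F and MT1G had 6 each, MT1X had 4, MT1E and MT1M had 3 each, and MT1A had 1. Of the other cluster genes, MT1H had 8, MT3 had 5, and MT1B and MT4 had 3 each. Over all promoters 36.3% held at least 1, and 4 promoters (0.0199%), MT2A and MT1H among them, held 8 or more. MT1H, which like MT2A has 8 copies, had no peak of either factor within 50 kb in any library. An AP-1 site was found in the promoter windows of MT2A and MT1B only among the 11 cluster genes, where 3.58% of all promoters held one. Antioxidant response element cores stood in those of MT2A, MT1B and MT1X, against 14.0% of all promoters. In a global alignment that allowed gaps, the promoters of the other 10 genes matched MT2A at 56.3% to 62.0% of its 300 bases. On the same measure the MTF1 promoter matched at 53.3% and that of SLC30A1 at 54.7%.

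**Figure D2:**
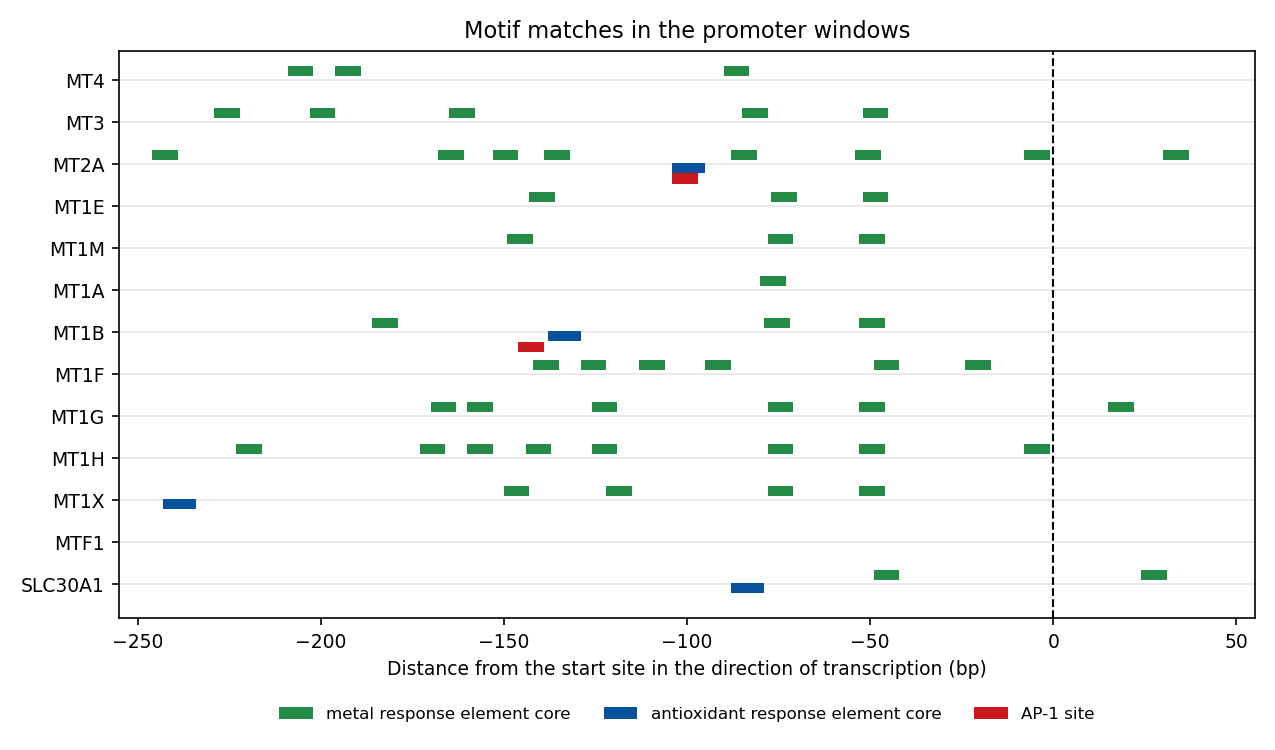
Motif matches in the promoter window of each cluster metallothionein gene, MTF1 and SLC30A1, by distance from the start site in bp (dashed line, the start site). Bars are to scale and mark metal response element cores (green), antioxidant response element cores (blue) and AP-1 sites (red). Metal response element cores stand in all 11 metallothionein promoters, whereas MT2A and MT1B alone carry an AP-1 site.

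MTF1 had HIF1α peaks and no Nrf2 peak. The gene, which encodes the zinc sensor, lies at chr1:38275246-38325264 on the minus strand and has 11 exons over 50019 bp. The nearest Nrf2 peak was at -1099 kb from the start site in control cells and at 404 kb with iAs. HIF1α was at the start site in both conditions. The control peak, chr1:38325104-38325383, was 280 bp wide with its centre at 21 bp, in exon 1. With iAs the peak was chr1:38325206-38325846, 641 bp wide with its centre at -262 bp, and it overlapped the control peak by 178 bp. The width rose from percentile 51.3 of the control list to percentile 85.0 of the iAs list. The 119 bases of the overlap that lie upstream of the start site, chr1:38325265-38325383, are printed on the minus strand to show that none of the 4 motifs is in them.
MTF1 HIF1α overlap upstream of the start site: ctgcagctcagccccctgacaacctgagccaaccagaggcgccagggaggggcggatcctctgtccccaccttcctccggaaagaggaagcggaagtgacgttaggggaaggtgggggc
The whole control peak held none of the 4 motifs either, and the wider iAs peak held 3 hypoxia response element cores. The MTF1 promoter window had no metal response element core.

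With iAs the HIF1α list held 4 more peaks within 50 kb of MTF1, all beyond its 3′ end and all without a HIF1α control peak. They lay closer to the start sites of other genes. The peak chr1:38259595-38259979 (385 bp) had its centre in exon 1 of MANEAL. The centres of chr1:38273380-38273578 (199 bp) and chr1:38273771-38273983 (213 bp) were in exon 1 of C1orf122 and of YRDC, which encodes an enzyme of tRNA modification. They lay 17 and 3 bp from the start sites, so both of these peaks also reached upstream of exon 1. The last of the 4 peaks, chr1:38274090-38274338 (249 bp), had its centre at -0.334 kb from the YRDC start site. Counting them for MTF1 follows the distance rule and assigns no target.

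SLC30A1 was the one gene of the 9 with peaks of both factors in both conditions. It lies at chr1:211744910-211752503 on the minus strand, with 2 exons over 7594 bp, and the nearest start site to each of its 10 peaks was its own. The most persistent Nrf2 place was far upstream. Control cells had an Nrf2 peak of 744 bp at chr1:211786312-211787055, with its centre at -34.2 kb. With iAs this interval lay wholly inside an Nrf2 peak of 1521 bp, chr1:211785955-211787475. The widths stood at percentile 94.2 of the control list and 98.4 of the iAs list, so both were among the wide peaks of their lists. The surroundings of the AP-1 site that both intervals share, chr1:211786809-211786895, are shown on the minus strand with that site in capitals.
SLC30A1 upstream Nrf2 peak: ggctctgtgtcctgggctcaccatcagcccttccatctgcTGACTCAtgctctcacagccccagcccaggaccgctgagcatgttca
The control interval held no antioxidant response element core, and the longer iAs interval held 1 as well as a second AP-1 site. No HIF1α peak overlapped either.

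At the 5′ end of SLC30A1, iAs-treated cells had peaks of both factors where control cells had a single narrow HIF1α peak. The control HIF1α peak, chr1:211751165-211751354, was 190 bp wide, the smallest width in its list, and spanned the border of exon 1 and intron 1. With iAs it lay inside a HIF1α peak of 307 bp, chr1:211751104-211751410. Another 2 HIF1α peaks of the iAs list had no counterpart in control cells. One of them, chr1:211751544-211752073, was 530 bp wide and in exon 1, and the other, chr1:211752226-211752525, was 300 bp wide and lay over the start site. An Nrf2 peak of 428 bp with iAs, chr1:211751311-211751738, had its centre in exon 1, at 0.979 kb, and overlapped no Nrf2 control peak. It shared 195 bp with the HIF1α peak in exon 1, 100 bp with the one at the exon border and 44 bp with the HIF1α control peak. The 195 shared bases, chr1:211751544-211751738, lie in the coding part of exon 1. They are the longer of the stretches at SLC30A1 where iAs peaks of both factors overlapped. These bases are printed on the minus strand with the hypoxia response element cores in capitals.
SLC30A1 exon 1 shared interval: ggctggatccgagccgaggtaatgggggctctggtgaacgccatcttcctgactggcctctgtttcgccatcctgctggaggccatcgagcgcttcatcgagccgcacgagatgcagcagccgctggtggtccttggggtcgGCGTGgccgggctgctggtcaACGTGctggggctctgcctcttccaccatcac
Unlike the shared interval of MT2A, this one held 2 hypoxia response element cores and no antioxidant response element core, AP-1 site or metal response element core. The SLC30A1 promoter window held 2 metal response element cores and 1 antioxidant response element core, and the Nrf2 peak did not reach it.

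The last places at SLC30A1 held HIF1α peaks in control cells and none with iAs. One control peak, chr1:211763572-211763848, was 277 bp wide with its centre at -11.2 kb, and no other list had a peak there. Of its positions, 50.5% had a 31-base sequence that occurs once in hg19, the lowest share among the 20 peaks. The other, chr1:211724985-211725312, was 328 bp wide and had its centre 27.4 kb downstream of the start site, beyond the gene. With iAs this place had an Nrf2 peak instead, chr1:211725020-211725304, 285 bp wide with its centre at 27.3 kb and wholly inside the former HIF1α interval. Unique positions made up 81.7% of the HIF1α interval and 91.2% of the Nrf2 interval. Both hold 1 antioxidant response element core, shown in capitals (GCTCCGTCA, the form on the opposite strand) in chr1:211725069-211725157, minus strand.
SLC30A1 downstream place: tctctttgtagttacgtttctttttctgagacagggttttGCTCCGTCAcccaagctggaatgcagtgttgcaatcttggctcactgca
In the whole lists, 2782 HIF1α control peaks overlapped no HIF1α peak with iAs, and 609 of them (21.9%) overlapped an Nrf2 peak that was present with iAs and not in control cells.

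**Figure D3:**
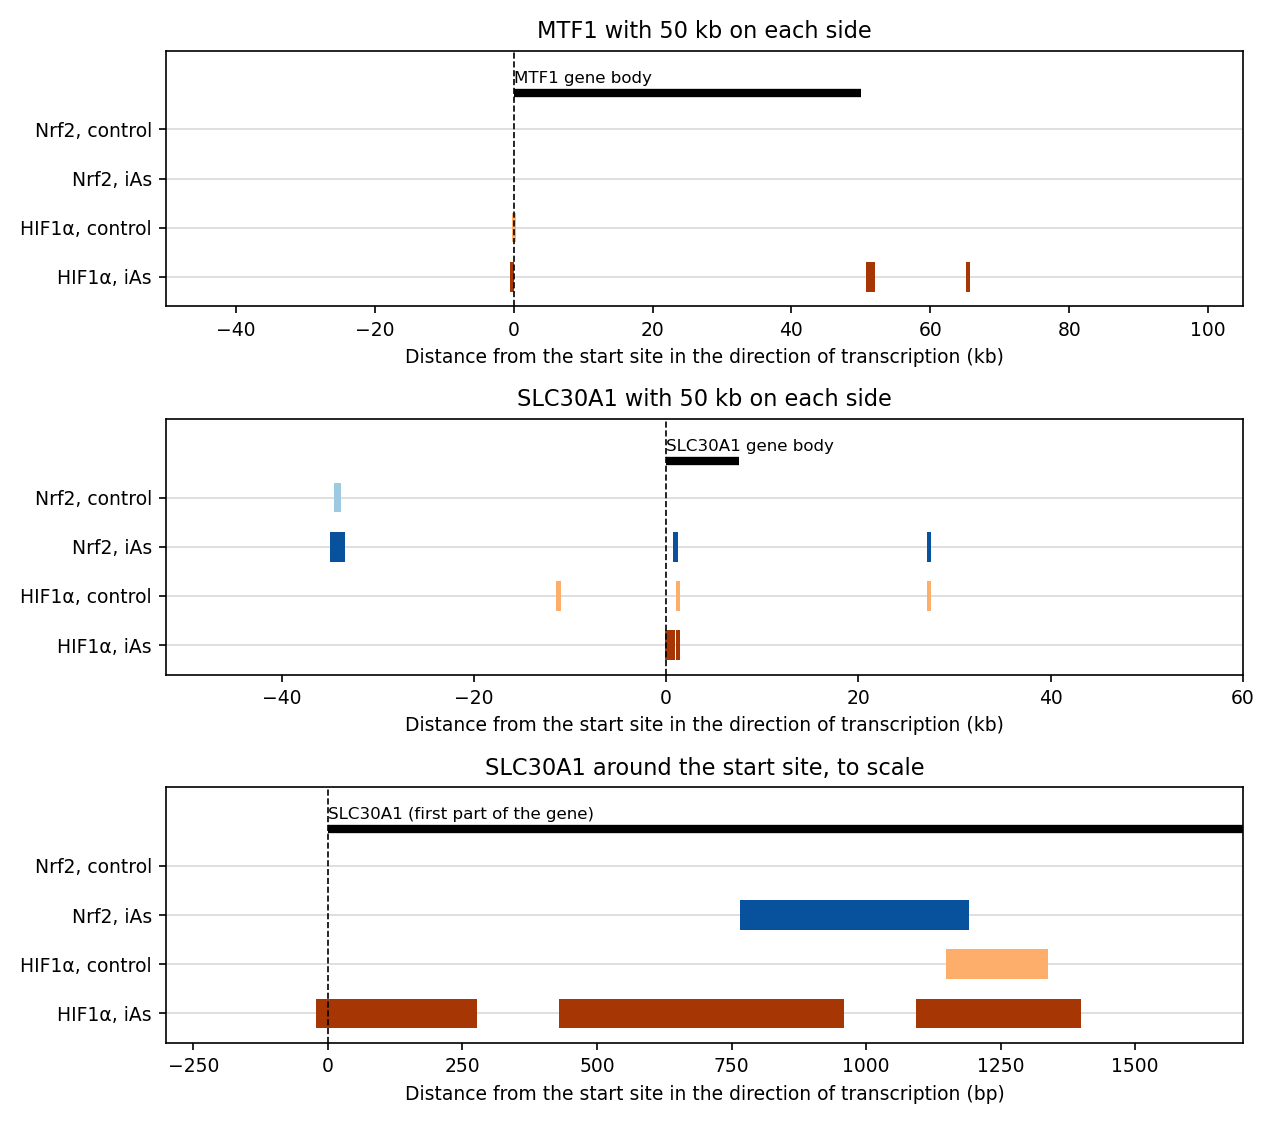
Peaks of the 4 libraries at MTF1 and SLC30A1 by distance from the start site (dashed line), in kb in the upper panels, with bars drawn at least 0.6 kb (MTF1) or 0.45 kb (SLC30A1) wide, and in bp and to scale in the lowest panel, where the peaks at -34.2, -11.2, 27.3 and 27.4 kb are out of range. MTF1 has HIF1α rows only, and SLC30A1 has peaks in all 4 rows. The iAs peaks of both factors meet between 765 and 959 bp and between 1093 and 1192 bp.

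Counted once each, the 3 loci (the cluster, MTF1 and SLC30A1) held 20 peaks, of which 1 was an Nrf2 control peak, 6 were Nrf2 peaks with iAs, 4 were HIF1α control peaks and 9 were HIF1α peaks with iAs. Overlap with a control peak of the same factor was absent for 5 of the 6 Nrf2 peaks and 7 of the 9 HIF1α peaks with iAs. The share of such peaks was not computed over the whole lists, so these counts are not shown to be particular to the 3 loci. In the whole lists iAs peaks outnumbered control peaks, at 7743 against 3204 for Nrf2 and 12826 against 6008 for HIF1α. By gene, 1 of the 9 had an Nrf2 peak within 50 kb in control cells, where 20.0% of all protein-coding genes had one. With iAs 6 of 9 had an Nrf2 peak, against 35.0% of all genes. For HIF1α the counts were 2 of 9 in control cells, against 45.6%, and 7 of 9 with iAs, against 68.7%. An iAs peak without any overlap with the same factor in control cells was near 6 of 9 for Nrf2, against 25.4%, and 7 of 9 for HIF1α, against 59.7%. Since 5 of these genes share the MT2A peaks, the 9 genes amount to 3 places, and the HIF1α counts with iAs stood near the share of all genes.

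In a window around the start site the counts were smaller. No gene of the 9 had an Nrf2 control peak between 250 bp before and 50 bp after the start site, where 1.74% of all genes had one, and 1 of 9, MT2A, had an Nrf2 peak there with iAs, against 3.48%. MTF1 was the 1 gene with a HIF1α control peak at that place, against 14.1% of all genes, and MT2A, MTF1 and SLC30A1 had a HIF1α peak there with iAs, against 32.4%. MT2A was the gene with peaks of both factors in that window with iAs and of neither in control cells. This state held for 104 of all genes (0.516%), MT2A included. The HIF1α peak of MT2A ended at -56 bp, short of the start site itself, and its 188 bp was the smallest width of its list.

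By motif, 15 of the 20 peaks held a hypoxia response element core, 8 a metal response element core, 6 an antioxidant response element core and 5 an AP-1 site. Overlapping peaks of different libraries were counted separately, so the same bases can count more than once. This applies to the antioxidant response element cores in the MT2A promoter and downstream of SLC30A1. The 1 Nrf2 control peak held a hypoxia response element core and an AP-1 site, which 37.0% and 58.4% of its list held, and neither other motif. Of the 6 Nrf2 peaks with iAs, 4 held an antioxidant response element core, where 44.2% of all peaks of that list did, and 3 held an AP-1 site, against 51.5%. A hypoxia response element core was in 5 of these 6, against 42.4%, and a metal response element core in 1, against 26.0%. Of the 9 HIF1α peaks with iAs, 8 held a hypoxia response element core, against 71.6% of the list, and 5 held a metal response element core, against 50.4%. The HIF1α peak at MT2A was the single one of these 9 with an AP-1 site, which 4.38% of that list held. It was also the single one with an antioxidant response element core, against 18.9%. The 4 HIF1α control peaks held a hypoxia response element core in 1 case, against 58.5%, and no AP-1 site, against 18.0%. They held a metal response element core in 2 cases, against 30.5%, and an antioxidant response element core in 1, against 18.0%. These letters are short, and the counts on 20 peaks stand beside the list shares as a description.

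Other zinc handling genes also had more peaks nearby in the iAs lists than in the control lists, as did all genes. The list had 27 genes, namely the metallothioneins MT1B, MT1H, MT3 and MT4, the 9 exporters SLC30A2 to SLC30A10 and the 14 importers SLC39A1 to SLC39A14. For Nrf2, 3 of 27 had a peak within 50 kb in control cells (11.1%, against 20.0% of all genes) and 12 with iAs (44.4%, against 35.0%). For HIF1α, 12 had one in control cells (44.4%, against 45.6%) and 20 with iAs (74.1%, against 68.7%). An iAs peak without a control peak of the same factor was near 11 genes for Nrf2 (40.7%, against 25.4%) and 18 for HIF1α (66.7%, against 59.7%). Of the exporters, 0 had an Nrf2 control peak, 4 (44.4%) an Nrf2 peak with iAs, 3 (33.3%) a HIF1α control peak and 7 (77.8%) a HIF1α peak with iAs. For the importers these counts were 3 (21.4%), 5 (35.7%), 9 (64.3%) and 10 (71.4%), in the same order and against the same shares of all genes. Of the 4 metallothioneins, MT1B, MT3 and MT4 were within 50 kb of the MT2A peaks and had no others. Through those peaks alone, these 3 genes are among the 12 and 11 counted for Nrf2 and the 20 and 18 for HIF1α with iAs. None of the 27 genes had peaks of both factors in the window around the start site with iAs and of neither in control cells.

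Of the importers, SLC39A14 (ZIP14), which carries zinc, manganese and iron into cells, had peaks within 10 kb in all 4 libraries. Nrf2 was in intron 1 in control cells (475 bp) and with iAs (603 bp), with centres at 16.6 and 16.5 kb. A HIF1α control peak of 340 bp lay at the same place and overlapped no HIF1α peak with iAs. HIF1α with iAs had a peak of 420 bp at 0.201 kb and one of 538 bp beyond the gene, at 73.8 kb, and Nrf2 with iAs had a second peak in intron 1, of 181 bp at 25.4 kb. SLC39A8 (ZIP8), a zinc and cadmium importer, had Nrf2 peaks and none of HIF1α, at -84.2 kb in control cells (189 bp) and at a different place, -94.3 kb, with iAs (799 bp). At SLC39A12 an Nrf2 peak in intron 6 measured 242 bp without iAs and 399 bp after treatment.

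The HIF1α peaks just upstream of the start sites of SLC39A6, SLC39A7 and SLC39A13 were wider with iAs. At SLC39A6, with centres at -0.549 and -0.351 kb, the widths were 200 and 804 bp. At SLC39A7, which releases zinc from the endoplasmic reticulum, they were 437 and 675 bp, at -0.178 and -0.321 kb. HIF1α had 3 peaks near SLC39A1 in control cells and 5 with iAs. Of these, the peak in intron 1 was narrower with iAs, at 336 and 207 bp, whereas the peaks beyond the gene (403 and 670 bp) and further upstream, at -3.73 and -3.77 kb (248 and 351 bp) were wider. At SLC39A13 the HIF1α peak near -0.29 kb measured 276 and 438 bp, and an iAs peak of HIF1α (472 bp) and one of Nrf2 (306 bp) both lay beyond the gene, at 17.7 and 17.6 kb. The exporter SLC30A5, which loads zinc into the early secretory pathway, had HIF1α over exon 1 in both conditions (421 and 623 bp) and an Nrf2 peak of 217 bp in exon 1 with iAs only. The median width of all HIF1α peaks went from 276 to 340 bp between the same lists.

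**Figure D4:**
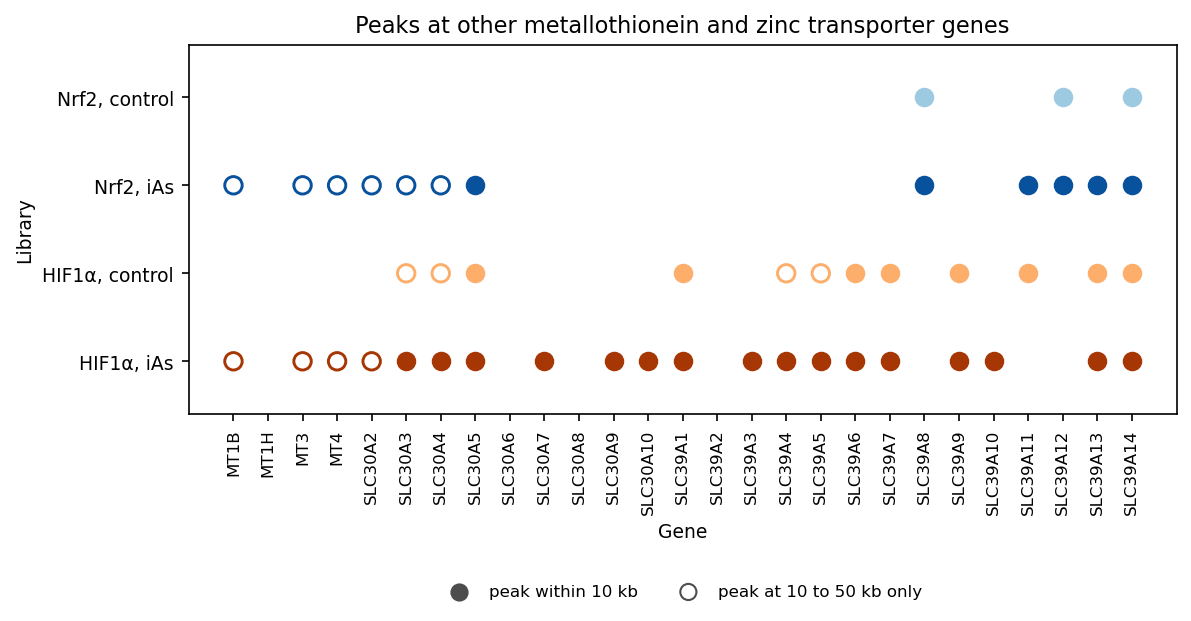
Peaks of the 4 libraries (rows) at the 27 other metallothionein and zinc transporter genes (columns). Filled circles mark a peak in the gene body or within 10 kb, open circles a peak at 10 to 50 kb only, and no circle means no peak within 50 kb. SLC39A14 has filled circles in all 4 rows, and the metallothioneins have open circles at most.

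Likeness between genes was taken as the number of libraries, out of 4, with the same presence or absence of a peak within 50 kb. The state of MT2A, MT1E, MT1M, MT1A and MT1F, peaks of both factors with iAs and of neither in control cells, was shared in all 4 libraries by 806 of all genes, these 5 included, and in the zinc list by MT1B, MT3, MT4 and SLC30A2. That of MT1G and MT1X, no peak at all, held for 4888 genes (24.3%), among them MT1H, SLC30A6, SLC30A8 and SLC39A2. The state of MTF1, HIF1α in both conditions and no Nrf2, held for 4054 genes (20.1%), including SLC39A1, SLC39A4, SLC39A5, SLC39A6, SLC39A7 and SLC39A9. SLC30A1 shared its peaks in all 4 libraries with 2596 genes (12.9%, itself included), of which SLC39A14 was the one in the zinc list.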

How the data were processed

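ChIP-seq of Nrf2 and HIF1α was made in control and iAs-treated BEAS-2B cells, 1 library each, and samples were grouped by the antibody and treatment in their labels. The authors down-sampled the tags within a group and called peaks with MACS or SICER. The submitters' processing notes name BWA, MACS2 2.1.0 and hg19, and which caller made each list is not given in the sources used here. The values the authors deposited are base positions of each peak, read here without rescaling and changed to 1-based; merged regions and the input were not used. Intervals were matched to GENCODE release 44 genes on hg19 in Python 3.11.15 (NumPy 2.4.6, pysam 0.24.0, samtools 1.23.1), with an overlap of at least 1 bp. Motifs were searched on both strands, and 31-base sequences were counted over hg19. The window count and the motif search were tested on simulated data. Read depth is unknown, no test was possible with 1 library per group, and no interval for counting error can be given. The genes and lists were chosen with earlier results of these data known. Named were the 9 genes, the gene with the nearest start site to each of their peaks, up to 8 genes of the zinc list with a peak within 10 kb, ranked by number of libraries and then widest peak, and genes alike in all 4 libraries. Counts were repeated with other distances, overlaps and peak widths. Promoter sequences of some cluster genes are not reported here.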

Additional observations from a re-analysis of the deposited data

Results flagged for a closer look

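Downstream of SLC30A1, a HIF1α peak of 328 bp (centre at 27.4 kb from the start site) was present in control cells and not with iAs, and an Nrf2 peak (centre at 27.3 kb) was present with iAs and not in control cells. The place was picked out because the lists of the 2 factors changed in opposite directions there, over a shared stretch of 285 bp. The difference was not tested, since each antibody and condition has 1 library. The same change was found at other places. In the whole lists, 2782 HIF1α control peaks overlapped no HIF1α peak with iAs. Of these, 609 (21.9%) overlapped an Nrf2 peak that was present with iAs and not in control cells. Unique positions made up 81.7% of the HIF1α interval downstream of SLC30A1 and 91.2% of the Nrf2 interval. The part of repeated sequence in the change was not tested.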

How the results depend on the processing

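Of 62 repeats of the counts under other settings, 46 stayed within 1.5 times the value reported and 16 did not. With a distance of 10 kb in place of 50 kb, 0 of the 9 genes and 0 distinct peaks were found for Nrf2 in control cells, 2 genes for Nrf2 with iAs, 2 distinct peaks for HIF1α in control cells and 3 genes for HIF1α with iAs. The zinc list then had 6 genes with an Nrf2 peak with iAs. With the wider 50% of the peaks of each list, the HIF1α peak at MT2A was left out by construction, and HIF1α with iAs had 2 of the 9 genes and 3 distinct peaks. The iAs peaks without a control peak of the same factor were then 3 for Nrf2 and 2 for HIF1α, and the zinc list had 1 gene for Nrf2 in control cells, 7 for HIF1α in control cells and 13 for HIF1α with iAs. HIF1α with iAs had 5 distinct peaks at 50 kb on each side of the start site, which leaves out the peaks beyond the 3′ end of MTF1, and 5 when intervals under 500 bp apart were merged. An AP-1 site was within 100 bp of the centre in 3 of the 20 peaks. The zinc list settings were chosen after seeing the data. Leaving out a replicate could not be done with 1 library per antibody and condition. No paired analysis was possible because each antibody and condition has 1 library and no result comes from a test. The lists hold no heights or read counts, so depth sets a limit on absence that cannot be given: a place without a peak was not called in that list, and is not shown to be unbound.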
